A study of Arabidopsis with 12 samples.

Results

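The genes described are 10 components of abscisic acid (ABA) signalling and synthesis, taken by locus identifier from the 27371 genes of the deposited table. They are the clade A protein phosphatases 2C *ABI1* (AT4G26080), *ABI2* (AT5G57050), *HAB1* (AT1G72770), *HAB2* (AT1G17550), *HAI1* (AT5G59220), *HAI2* (AT1G07430), *HAI3* (AT2G29380) and *PP2CA* (AT3G11410), together with *NCED3* (AT3G14440) and *OST1* (AT4G33950). RNA-Seq was carried out on whole 14-day-old *Arabidopsis* seedlings in 4 conditions with 3 biological replicates each. The conditions were *wlim2a-1* given 1 µM flg22 for 1 h, *wlim2a-1* given water for the same time (mock), WT (Col-0) with flg22 and WT mock. The peptide flg22 is a stretch of bacterial flagellin recognised as a PAMP, and *wlim2a-1* is a single CRISPR-Cas9 line with a frameshift in the gene of the actin-bundling LIM protein WLIM2A. Seedlings of every condition had been moved from agar to liquid medium overnight before treatment. The table holds 1 FPKM value per gene and condition, in which the authors had combined the 3 replicates. FPKM gives sequenced fragments relative to transcript length and to a measure of sequencing depth, so that levels can be compared between genes. No spread between replicates could be computed, and no difference given here was tested.

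ABA is the hormone of drought and osmotic stress, of seed dormancy and of stomatal closure. NCED3 cleaves carotenoids in the step that limits ABA synthesis under water deficit. The clade A PP2Cs are the brake of the pathway: they dephosphorylate the SnRK2 kinases SNRK2.2, SNRK2.3 and OST1 and keep them inactive. PYR/PYL receptors that have bound ABA inhibit the phosphatases, and the released kinases phosphorylate ABF transcription factors and, in guard cells, ion channels such as SLAC1. Transcription of several clade A PP2Cs is itself induced by ABA, which makes them part of a negative feedback loop. OST1 is also known for its role in the closure of stomata in response to bacteria.

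Genes with at least 1 FPKM in at least 1 condition were compared, which gave 19323 genes and 9 of the 10 components. Differences are given as log2 of FPKM + 1, and a gene is called higher or lower from a difference of 1, that is 2-fold of FPKM + 1. Statements that a gene did or did not pass 2-fold refer to this scale. This scale understates the change of genes with low FPKM, whose FPKM ratio can pass 2 without a call. *HAI3* stayed below 1 FPKM and was not compared. *HAI2* entered only through *wlim2a-1* mock, the condition in which it was high.

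Conditions differed in the table as a whole. The single locus AT2G01021 held 67.4% of the summed FPKM in *wlim2a-1* flg22, 56.5% in *wlim2a-1* mock, 28.9% in WT flg22 and 67.4% in WT mock. The upper quartile of the genes compared was 20.9, 21.3, 21.0 and 20.0 FPKM in the same conditions. The condition *wlim2a-1* mock stood apart in the chloroplast genes. Of 83 genes encoded in the chloroplast, 69 had their highest value there, against 39.2% of all genes compared. Against WT mock, 65 of the 83 were higher by 2-fold or more and 5 were lower. Of all genes compared, 4.48% were higher and 0.611% were lower. Because the replicates were combined, 1 deviating replicate in a condition and a difference shared by all 3 cannot be told apart. The part of these differences in the results was not tested. *WLIM2A* had 6.20 FPKM in *wlim2a-1* flg22, 10.9 in *wlim2a-1* mock, 11.6 in WT flg22 and 12.6 in WT mock. Its transcript can still be counted in a frameshift mutant, so these values do not check the genotype. *FRK1*, a marker of the flg22 response, had 3.13 FPKM in *wlim2a-1* flg22 against 0.405 in *wlim2a-1* mock, and 0.942 in WT flg22 against 0.0720 in WT mock. *RBCS1A*, a gene of green tissue, had 11504 FPKM in *wlim2a-1* flg22 and 14401 in *wlim2a-1* mock but was listed at 0 in both WT conditions, as was *CAB1*. A value of exactly 0 can therefore be a failed estimate in this table.

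The phosphatases fell into 4 of high and 4 of low transcript level. *ABI1* was the highest of them in all 4 conditions, and *PP2CA*, *HAB2* and *HAB1* followed with 9.32 to 23.9 FPKM. Together these 4 genes held 93.0% of the summed FPKM of the 8 phosphatases in *wlim2a-1* flg22, 90.5% in *wlim2a-1* mock, 94.8% in WT flg22 and 94.0% in WT mock. *ABI2*, *HAI1*, *HAI2* and *HAI3* did not pass 3.71 FPKM in any condition. The summed FPKM of all 8 was 83.8 in *wlim2a-1* flg22, 95.3 in *wlim2a-1* mock, 79.5 in WT flg22 and 75.0 in WT mock. *HAI1*, *HAI2* and *HAI3*, named Highly ABA-Induced after their known regulation, made up 2.83%, 6.08%, 1.82% and 2.49% of this sum in the same conditions. *AHG1* (AT5G51760), the clade A phosphatase best known from seeds and not one of the 10, did not exceed 0.113 FPKM.

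**Figure D1:**
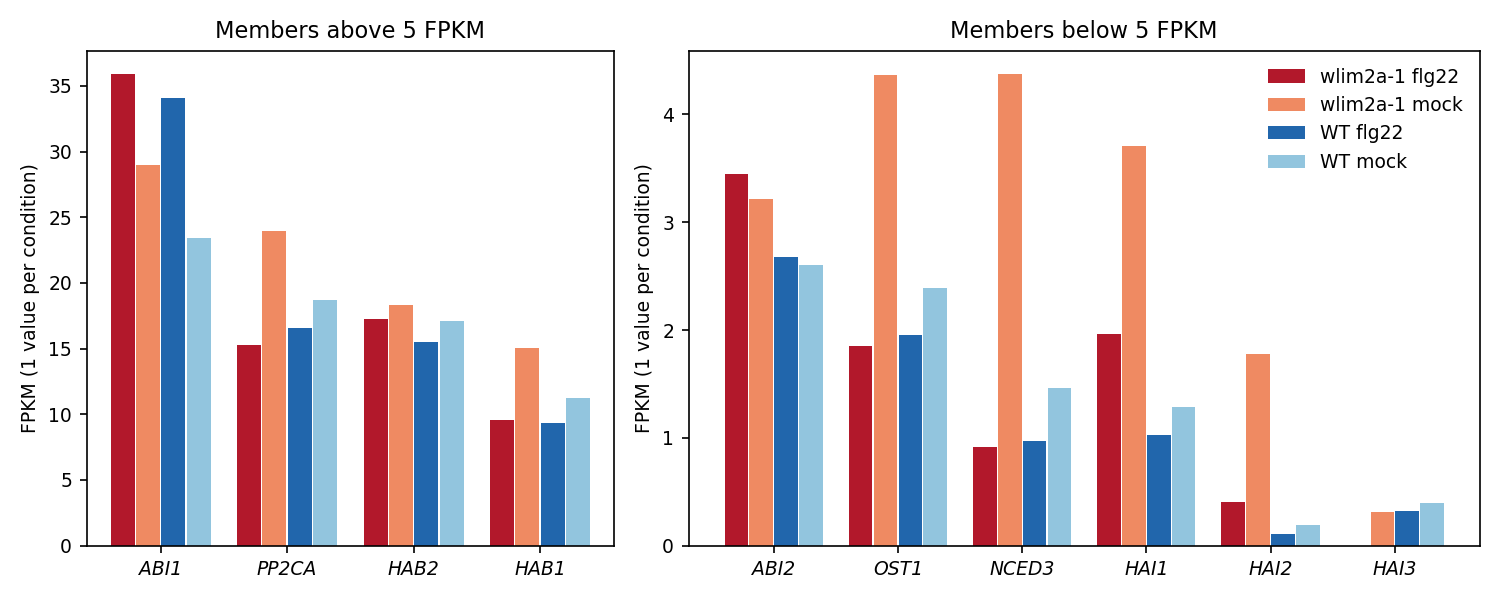
FPKM of the 10 components in *wlim2a-1* flg22, *wlim2a-1* mock, WT flg22 and WT mock (y axes, linear from 0, 1 value per bar and no error), with the 4 components above 5 FPKM on the left and the other 6 on the right. *OST1*, *NCED3*, *HAI1* and *HAI2* are highest in *wlim2a-1* mock, and *ABI1* is the highest component in every condition.

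Of the 10 components, 7 had their highest value in *wlim2a-1* mock: *HAB1*, *HAB2*, *HAI1*, *HAI2*, *PP2CA*, *NCED3* and *OST1*. All 7 were among the 9 compared, *HAI2* only through that condition, and 39.2% of the 19323 genes were also highest in it. *ABI1* and *ABI2* were highest in *wlim2a-1* flg22, and *HAI3* was highest in WT mock.

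Untreated seedlings of the 2 genotypes were compared first. In mock, *NCED3* and *HAI1* were at least 2-fold above WT in *wlim2a-1* and none of the components was lower. Of all genes compared, 4.48% were higher and 0.611% were lower. *HAI2* also passed 2-fold, but it had entered only through *wlim2a-1* mock, so the direction of its difference was set by the FPKM minimum. *NCED3* (chromosome 3, 4831286 to 4834015, positions from RefSeq for TAIR10.1) had 4.37 FPKM in *wlim2a-1* mock against 1.47 in WT mock, a log2 difference of 1.12. This difference was larger in size than those of 96.1% of the genes compared. In the other 3 conditions *NCED3* lay between 0.917 and 1.47 FPKM.

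*HAI1* (chromosome 5, 23894404 to 23896939), whose product inhibits ABA responses under drought and is linked to senescence, had 3.71 FPKM in *wlim2a-1* mock against 1.29 in WT mock, a log2 difference of 1.04. *HAI2* (chromosome 1, 2280746 to 2282828) had 1.78 and 0.187 FPKM, a ratio of 9.49 between 2 low values and a log2 difference of 1.23. These were the phosphatases with the largest differences, and both are of low level. The third gene of the group, *HAI3* (chromosome 2, 12608675 to 12610350), had 0.308 FPKM in *wlim2a-1* mock against 0.392 in WT mock. These values are too low to say whether *HAI3* shared the pattern.

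The other phosphatases differed by less than 2-fold in mock. *PP2CA* (chromosome 3, 3583782 to 3585850), which acts on OST1 and SLAC1, had 23.9 FPKM in *wlim2a-1* mock against 18.7 in WT mock. *HAB1* (chromosome 1, 27389948 to 27393327) had 15.1 and 11.3 FPKM, and *HAB2* (chromosome 1, 6034270 to 6037398) had 18.3 and 17.1. HAB1 and HAB2 are close paralogs, as are ABI1 and ABI2, and the sources used here do not say how fragments shared by such pairs were assigned.

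*ABI1* (chromosome 4, 13219915 to 13222376) had 29.0 FPKM in *wlim2a-1* mock against 23.4 in WT mock, and *ABI2* (chromosome 5, 23087122 to 23089631) had 3.22 and 2.60. The log2 differences of the 4 genes *ABI1*, *ABI2*, *HAB1* and *HAB2* ranged from 0.09 to 0.39 with a median of 0.26. Over the 7 phosphatases compared the median was 0.34, against 0.01 over all genes. These 7 include *HAI2*, whose direction was set by the FPKM minimum. *OST1* (chromosome 4, 16271745 to 16274825), the kinase that these phosphatases hold inactive, had 4.36 FPKM in *wlim2a-1* mock against 2.39 in WT mock. Its log2 difference of 0.66 was under 2-fold and larger than those of 86.7% of genes.

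The response to flg22 was then compared within each genotype. In *wlim2a-1*, *NCED3* was the only component at least 2-fold different, being lower after flg22, where 4.25% of all genes were lower and 5.53% were higher. It had 0.917 FPKM in *wlim2a-1* flg22 against 4.37 in *wlim2a-1* mock, a log2 difference of −1.49. *HAI2* had 0.409 FPKM after flg22 against 1.78 in mock, and *OST1* had 1.85 against 4.36. Their log2 differences of FPKM + 1 were −0.98 and −0.91 and were not called. The ratios of FPKM itself were 0.230 and 0.424, past 2-fold. The same *wlim2a-1* mock values enter this comparison and the comparison of genotypes in mock, so that the patterns of both are not independent.

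*HAI1* had 1.97 FPKM in *wlim2a-1* flg22 against 3.71 in *wlim2a-1* mock. *PP2CA* had 15.3 against 23.9 FPKM and *HAB1* had 9.53 against 15.1, with log2 differences of −0.61 for both. *HAB2* and *ABI2* hardly differed, at −0.08 and 0.08. *ABI1* stood at 35.9 FPKM in *wlim2a-1* flg22 and 29.0 in *wlim2a-1* mock. The median of the 7 phosphatases compared was −0.61, against −0.09 over all genes. *HAI2* is among these 7, and the direction of its difference here was also set by the FPKM minimum. Over *ABI1*, *ABI2*, *HAB1* and *HAB2* alone the median was −0.001.

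In WT, none of the 9 components differed 2-fold between flg22 and mock, where 4.47% of all genes were higher and 0.471% were lower. *ABI1* had the largest difference, with 34.1 FPKM in WT flg22 against 23.4 in WT mock. Its log2 difference of 0.52 was larger than those of 88.1% of genes. When levels were divided by those of *ACT2* and *UBQ10*, the sign of the *ABI1* and *ABI2* values with flg22 was the opposite in both genotypes, but with that ratio the median of all genes compared was also −0.54 in WT and −0.63 in *wlim2a-1*. *NCED3* had 0.973 FPKM in WT flg22 and 1.47 in WT mock, and *OST1* had 1.95 and 2.39. The 7 phosphatases compared had a median log2 difference of −0.14, against −0.05 over all genes.

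**Figure D2:**
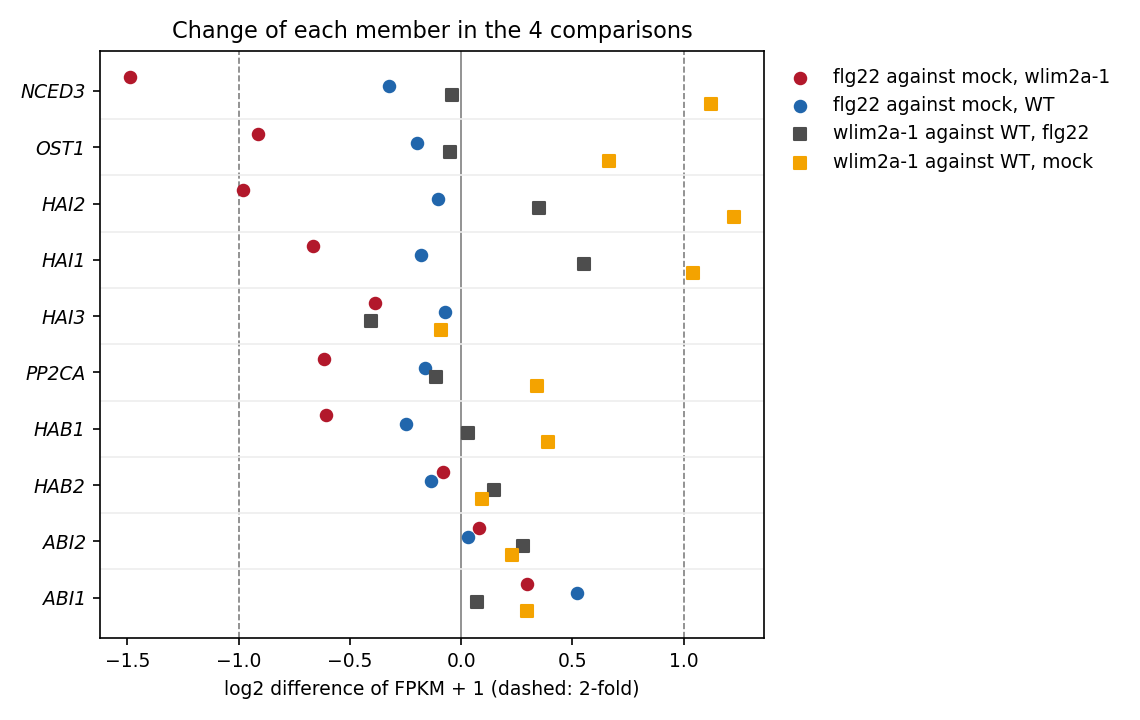
Log2 difference of FPKM + 1 (x axis) for each of the 10 components (rows) in the 4 comparisons, with flg22 against mock as circles and *wlim2a-1* against WT as squares, 1 value per point and dashed lines at 2-fold. *NCED3*, *HAI2* and *HAI1* pass the line in *wlim2a-1* against WT in mock, *NCED3* passes it with flg22 in *wlim2a-1*, and *HAI3*, shown for completeness, was below 1 FPKM throughout.

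After flg22, none of the 9 components differed 2-fold between *wlim2a-1* and WT, where 1.16% of all genes were higher and 0.352% were lower. This comparison does not use *wlim2a-1* mock. *NCED3* had 0.917 FPKM in *wlim2a-1* flg22 and 0.973 in WT flg22, and *OST1* had 1.85 and 1.95. *HAI1* had 1.97 and 1.02 FPKM, a log2 difference of 0.55 that was larger than those of 95.1% of genes. The ratio of *HAI1* in *wlim2a-1* to that in WT was 2.88 in mock and 1.92 after flg22, and that of *HAI2* was 9.49 and 3.90. For *NCED3* the ratio was 2.98 in mock and 0.943 after flg22. For *HAI2* the values after flg22 were 0.409 and 0.105 FPKM. *HAI3* was listed at 0 in *wlim2a-1* flg22 and had 0.323 FPKM in WT flg22.

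The difference between the genotypes in the log2 change with flg22 was at least 1 in size for *NCED3* alone, at −1.16, where 3.70% of all genes had a value of −1 or lower and 1.46% a value of 1 or higher. The values of *HAI2*, *OST1*, *HAI1* and *PP2CA* were −0.88, −0.71, −0.49 and −0.45. *ABI2* and *HAB2* had 0.05 and 0.06. No replicate values were at hand to test any of these differences.

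The other enzymes of ABA synthesis were read beside *NCED3*. *NCED3* held 75.2% of the summed FPKM of *NCED2*, *NCED3*, *NCED5*, *NCED6* and *NCED9* in *wlim2a-1* flg22, 94.7% in *wlim2a-1* mock, 71.3% in WT flg22 and 67.6% in WT mock. The other 4 dioxygenase genes did not reach 1 FPKM. Of the 10 further synthesis genes listed, 6 were compared, and *BGLU18* alone passed 2-fold between the genotypes in mock. Of all genes compared, 4.48% were higher in *wlim2a-1* and 0.611% were lower. *BGLU18* encodes the β-glucosidase that releases ABA from its glucose ester. It had 24.4 FPKM in *wlim2a-1* flg22, 66.2 in *wlim2a-1* mock, 13.3 in WT flg22 and 16.9 in WT mock, and it was at least 2-fold lower with flg22 in *wlim2a-1* at a log2 difference of −1.40. *ABA1*, the zeaxanthin epoxidase, and *AAO3*, the oxidase of the last step, had 11.9 and 7.50 FPKM in *wlim2a-1* mock against 7.40 and 4.30 in WT mock, under 2-fold. Over the 6 genes the log2 difference in mock had a median of 0.46.

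Genes for the removal of ABA were read next. Of the 6 listed, 3 were compared, and *CYP707A3* and *UGT71B6* were at least 2-fold higher after flg22 in *wlim2a-1* and in WT. Of all genes compared, 5.53% were higher with flg22 in *wlim2a-1* and 4.47% in WT. *CYP707A3*, an ABA 8′-hydroxylase, had 8.77 FPKM in *wlim2a-1* flg22 against 2.77 in *wlim2a-1* mock, and 8.19 in WT flg22 against 1.34 in WT mock. *UGT71B6*, which glucosylates ABA, had 35.8 against 4.29 FPKM in *wlim2a-1* and 22.0 against 1.90 in WT. *UGT71C5*, a further ABA glucosyltransferase, stayed under 2-fold with 102 against 63.9 FPKM and 116 against 70.7. Of these 3 genes none differed 2-fold of FPKM + 1 between the genotypes in either treatment. In mock, the FPKM ratio of *wlim2a-1* to WT was 2.07 for *CYP707A3* and 2.26 for *UGT71B6*.

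Among 5 transport genes compared of 6 listed, *ABCG40*, an importer of ABA, had 10.4 FPKM in *wlim2a-1* flg22, 1.81 in *wlim2a-1* mock, 3.18 in WT flg22 and 1.35 in WT mock. It was at least 2-fold higher with flg22 in *wlim2a-1* and, after flg22, above WT in *wlim2a-1* by more than 2-fold. Of all genes compared, 5.53% and 1.16% were higher in these comparisons. The exporter gene *ABCG25* lay between 2.23 and 3.35 FPKM.

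Receptor genes ranged widely in level. The summed FPKM of the 14 *PYR/PYL* genes was 16.1 times that of the 8 phosphatases in *wlim2a-1* flg22, 11.9 times in *wlim2a-1* mock, 20.3 times in WT flg22 and 18.7 times in WT mock. *PYR1* was the highest receptor gene with 470 to 658 FPKM, whereas *PYL2*, *PYL7* and *PYL9* lay between 5.07 and 10.2 FPKM and 5 of the 14 stayed below 1 FPKM. Of the 9 receptor genes compared, *PYL6* was at least 2-fold higher with flg22 in *wlim2a-1*, as were 5.53% of all genes. It had 102 FPKM against 49.5 in mock. No receptor gene was at least 2-fold different in the other comparisons. *PYL5* had 268 FPKM in *wlim2a-1* flg22 against 135 in *wlim2a-1* mock, and 319 in WT flg22 against 175 in WT mock, both under 2-fold. For *wlim2a-1* against WT in mock the 9 genes had a median of −0.37, of the opposite sign to that of the phosphatases.

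Among the kinases that the phosphatases inactivate, *OST1* was the lowest. It made up 2.62% of the summed FPKM of *SNRK2.2*, *SNRK2.3* and *OST1* in *wlim2a-1* flg22, 5.66% in *wlim2a-1* mock, 2.53% in WT flg22 and 3.05% in WT mock. OST1 is best known from guard cells, and in whole seedlings fewer cells of one type cannot be told apart from less RNA per cell. *SNRK2.2* had 53.5, 60.5, 56.7 and 57.3 FPKM in the same conditions, the same order of conditions as *OST1* with smaller differences, all under 2-fold. Of the 9 other SnRK2 genes, *SNRK2.8* was at least 2-fold higher with flg22 in *wlim2a-1*, as were 5.53% of all genes. *SNRK2.8* had 18.9 FPKM against 8.90 in mock in *wlim2a-1*, and 17.8 against 17.5 in WT. Its value in *wlim2a-1* mock was thus the low one of the 4, where that of *OST1* was the high one. The remaining 8 differed by less than 2-fold of FPKM + 1 in every comparison. For *SNRK2.7* the FPKM ratio of *wlim2a-1* to WT in mock was 0.487.

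Proteins that act on the phosphatases themselves were listed as well. The 8 genes include those of EAR1, an enhancer of phosphatase activity, and of the receptor kinase FER. The rest encode ubiquitin ligases and adaptors, namely PUB12, PUB13, RGLG1, RGLG5, BPM3 and BPM5. None of the 8 differed 2-fold of FPKM + 1 in any of the 4 comparisons. The FPKM ratio of flg22 to mock was 2.13 for *PUB12* in WT, and for *RGLG5* 2.05 in *wlim2a-1* and 2.08 in WT. *PUB12*, a ligase that targets ABI1, had 7.04 FPKM in *wlim2a-1* flg22 against 3.65 in *wlim2a-1* mock, and 6.52 in WT flg22 against 3.06 in WT mock.

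**Figure D3:**
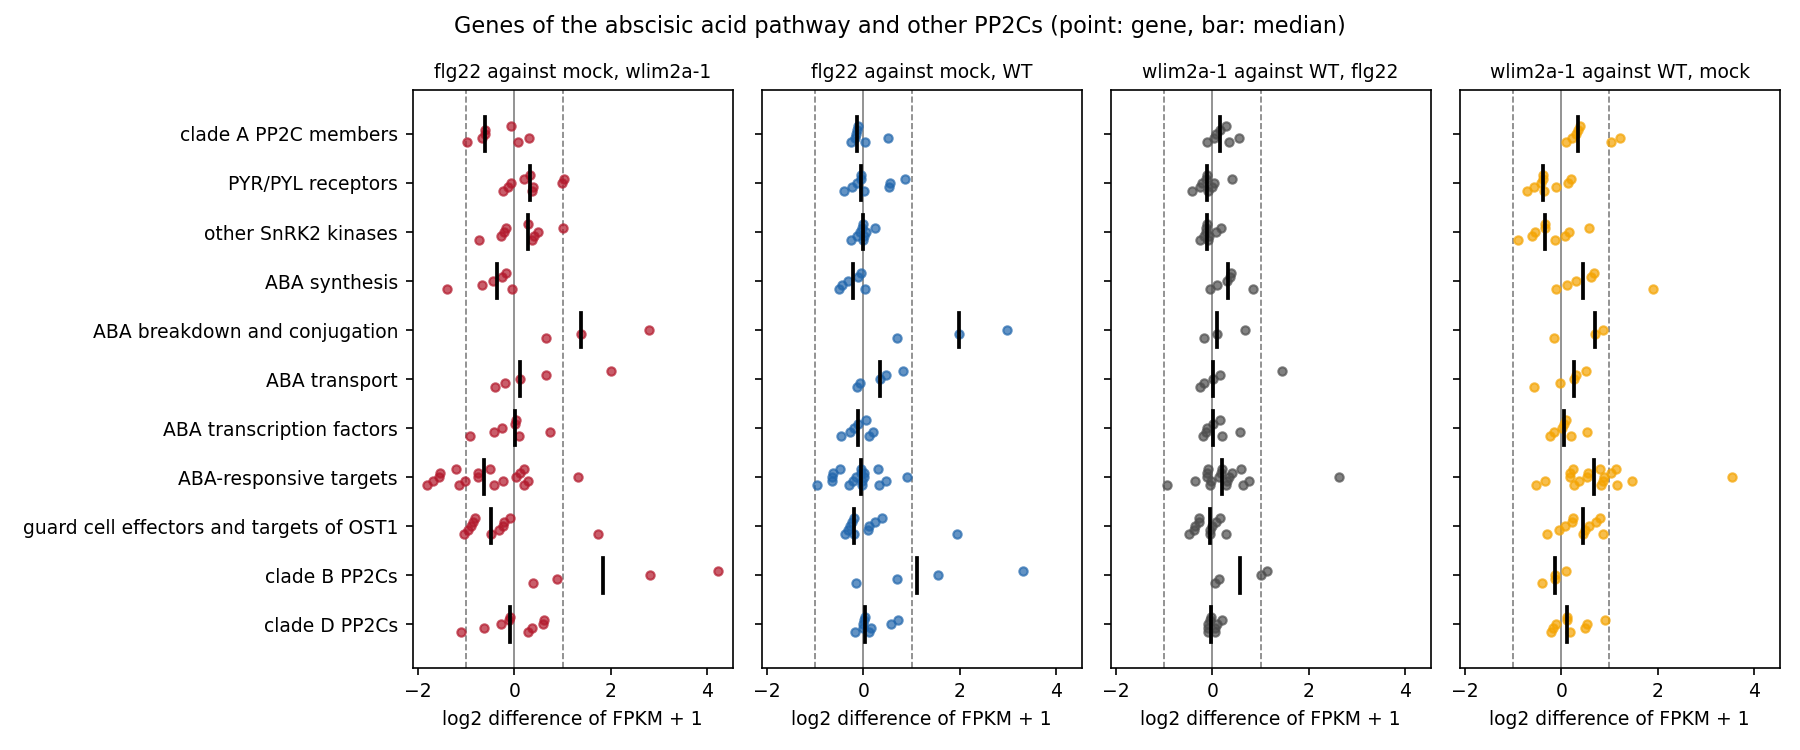
Log2 difference of FPKM + 1 (x axes) of the compared genes of 11 lists (rows, 1 point per gene, black bar at the median of the list) in the 4 comparisons, with dashed lines at 2-fold. Genes of ABA breakdown and conjugation lie to the right with flg22 in both genotypes, and the ABA-responsive targets have a median of −0.63 with flg22 in *wlim2a-1* and 0.67 in *wlim2a-1* against WT in mock.

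Of 9 transcription factors of the pathway listed, 7 were compared and none differed 2-fold of FPKM + 1 in any comparison. *ABF2*, a bZIP factor activated by SnRK2 kinases, had 6.64 FPKM in *wlim2a-1* flg22, 13.5 in *wlim2a-1* mock, 7.78 in WT flg22 and 9.06 in WT mock, with a log2 difference of −0.92 with flg22 in *wlim2a-1*. *ABF1*, *ABF3* and *ABF4* lay between 11.6 and 22.2 FPKM, and *ABI5*, best known from seeds, between 1.78 and 3.72. For *wlim2a-1* against WT after flg22, *ABI5* differed by 0.57 on the log2 scale, more than 95.4% of genes.

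Targets that ABA is known to induce were listed as an outcome of the pathway, and 18 of 20 were compared. In mock, 5 exceeded WT by 2-fold or more in *wlim2a-1* and none was lower, with a median log2 difference of 0.67, where 4.48% of all genes were higher and 0.611% were lower. *RAB18*, a dehydrin widely used as an ABA marker, had 38.8 FPKM in *wlim2a-1* flg22, 118 in *wlim2a-1* mock, 5.46 in WT flg22 and 9.14 in WT mock. It alone also passed 2-fold of FPKM + 1 between the genotypes after flg22, at a log2 difference of 2.62. The other 4 were *RD20*, *TSPO*, *RD22* and *RD29B*, of which *RD29B*, with a promoter known for its ABA response elements, had 7.22 FPKM in *wlim2a-1* mock against 3.03 in WT mock. *RD20* had 1.84 and 0.0298 FPKM and entered the comparison only through *wlim2a-1* mock. The direction of its difference was therefore set by the FPKM minimum. After flg22, the FPKM ratio of *wlim2a-1* to WT was 2.52 for *TSPO* and 6.02 for *RD20*, and in the other direction 0.440 for *LEA4-5*. For *RD20* the values after flg22 were 0.270 and 0.0449 FPKM.

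With flg22 in *wlim2a-1*, 7 of the 18 targets were at least 2-fold lower and *TMAC2* was higher, where 4.25% of all genes were lower and 5.53% were higher. In WT none of the 18 passed 2-fold of FPKM + 1, where 0.471% of all genes were lower and 4.47% were higher. The FPKM ratios of *RD29B* and *TSPO* in WT were 0.352 and 0.454. The 7 were the 5 named above and the late embryogenesis abundant genes *LEA4-5* and *LEA7*. Among them *RD20*, compared only through *wlim2a-1* mock, could only be lower. *LEA4-5* had 2.68 FPKM in *wlim2a-1* flg22, 11.9 in *wlim2a-1* mock, 6.09 in WT flg22 and 6.27 in WT mock. *TMAC2*, which encodes a repressor of ABA responses, had 128, 50.4, 138 and 73.2 FPKM in these conditions. *RD26* and *HIS1-3* hardly differed, with 17.4 to 20.2 and 20.0 to 26.8 FPKM. The highest value was in *wlim2a-1* mock for 12 of the 18 targets and for 39.2% of all genes compared. *RD20* is among these 12 through the FPKM minimum.

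**Figure D4:**
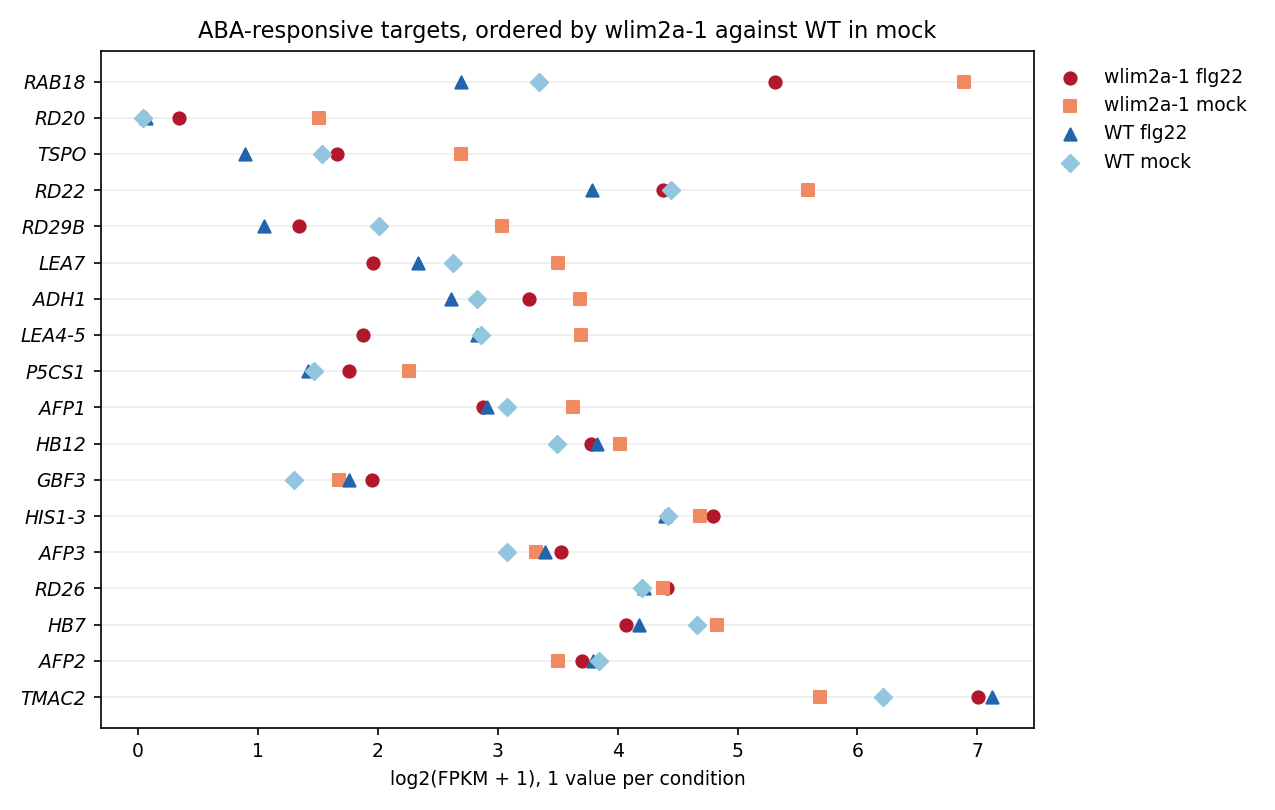
Log2(FPKM + 1) (x axis) of the 18 compared ABA-responsive targets (rows, ordered by the difference between *wlim2a-1* mock and WT mock) in the 4 conditions, 1 value per point. *RAB18* at the top is higher in both *wlim2a-1* conditions than in both WT conditions, and *TMAC2* at the bottom is lowest in *wlim2a-1* mock.

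Guard cell genes, several of whose products OST1 phosphorylates, had a median of 0.44 for *wlim2a-1* against WT in mock. None of the 11 passed 2-fold of FPKM + 1, where 4.48% of all genes were higher and 0.611% were lower. The FPKM ratio of *RBOHF* was 2.31. *SLAC1*, the anion channel through which OST1 closes stomata, had 0.790 FPKM in *wlim2a-1* flg22, 2.69 in *wlim2a-1* mock, 1.18 in WT flg22 and 1.72 in WT mock. It was at least 2-fold lower with flg22 in *wlim2a-1*, as were 4.25% of all genes compared. The potassium channel genes *KAT1*, *KAT2* and *GORK* and the genes *SLAC1*, *SLAH3* and *RBOHF*, 6 of the 11, were highest in *wlim2a-1* mock, as were 39.2% of all genes compared. *RBOHD*, the NADPH oxidase of the flg22 response, differed from them and was at least 2-fold higher with flg22 in both genotypes, with 45.5 FPKM against 12.9 in *wlim2a-1* and 37.0 against 8.83 in WT.

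Phosphatases of 2 other clades were listed beside clade A, and differences between clades were not tested. Of the 4 clade B genes, which encode phosphatases of MAP kinases, *AP2C2* and *AP2C3* were at least 2-fold higher with flg22 in both genotypes. Both were below 1 FPKM in mock and were compared only through the flg22 conditions. Their direction with flg22 is therefore not independent of the FPKM minimum. *AP2C2* had 26.7 FPKM in *wlim2a-1* flg22 against 0.467 in *wlim2a-1* mock, and 12.7 in WT flg22 against 0.371 in WT mock. After flg22 both genes also passed 2-fold between the genotypes, higher in *wlim2a-1* by log2 differences of 1.02 and 1.14. Of all genes, 1.16% were higher in that comparison. Of the 9 clade D genes, which encode phosphatases of plasma membrane proton pumps, *PP2C.D1* alone passed 2-fold in any comparison, being lower with flg22 in *wlim2a-1*, with 5.89 FPKM against 14.0 in mock. None of the clade A phosphatases compared passed 2-fold of FPKM + 1 with flg22 in either genotype. Of all genes, 5.53% were higher and 4.25% lower with flg22 in *wlim2a-1*, and 4.47% and 0.471% in WT. With so few genes, a count of 0 lies near these shares and does not set clade A apart. In *wlim2a-1*, *HAI2* had −0.98 on this scale and −1.88 with a pseudocount of 0.1.

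For the 3 components that varied at least 2-fold between any of the 4 conditions, a variation found in 14.6% of the genes compared, the 3 genes with the nearest pattern over the conditions were sought among 13760 genes. Likeness was the distance between log2(FPKM + 1) values centred on each gene. Nearest to *NCED3* were *CHUP1*, which positions chloroplasts along actin, AT5G16730 and *IPMI2*, an isomerase of leucine and glucosinolate synthesis, at distances of 0.03, 0.07 and 0.07. *CHUP1* had 53.4 FPKM in *wlim2a-1* flg22, 154 in *wlim2a-1* mock, 55.6 in WT flg22 and 68.0 in WT mock. *HAI1* was nearest to *SPP2*, *STT3A* and AT5G65620 at distances of 0.08 to 0.14, and *HAI2* to *MAML-4*, *GSTL3* and *BSL1* at 0.04 to 0.07. With 4 values per gene, many genes have a similar pattern by this measure. The genes searched had to reach 5 FPKM, which none of the 3 components did, and the added 1 shrinks the fold range of low genes. In FPKM, *HAI2* ranged 17.0-fold and *NCED3* 4.77-fold over the conditions. *MAML-4* lay between 14.0 and 36.6 FPKM and *CHUP1* between 53.4 and 154, so these fold patterns were not alike in size.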

How the data were processed

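Fragments from 12 seedling samples, 3 for each of the 4 conditions, had been sequenced as mRNA libraries on the Illumina HiSeq platform. The sources used here do not give the depth per sample. According to the methods and the submitters' processing notes, the authors aligned trimmed reads to TAIR10 with TopHat2 2.1.1, assembled transcripts with Cufflinks and ran Cuffdiff 2.2.1 with quartile normalization. The deposited values were 1 FPKM per gene and condition, combined over replicates by the authors, and which program wrote them is not stated. They were used as deposited, with Python 3.11.15 and pandas 2.3.3.

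A pseudocount of 1 was added before log2, genes needed at least 1 FPKM in at least 1 condition, and a 2-fold difference of FPKM + 1 was counted as higher or lower. The counting was tested on simulated data. With no values per replicate, no SD, interval or p-value was computed. The 10 genes and all gene lists were chosen with earlier results of these data known. All 123 listed loci were found in the RefSeq annotation of TAIR10.1, which gave positions, and symbols follow general usage. Named were the 10 genes, check genes, the highest gene and those at least 2-fold different in each list, *AHG1* and the 3 nearest patterns. Other genes named for their values were chosen after these were seen. Alternatives were pseudocounts of 0.1 and 5, FPKM minimums of none and 5, thresholds of 1.5-fold and 4-fold, and 3 scalings. No gene or promoter sequences were used here.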

Additional observations from a re-analysis of the deposited data

How the results depend on the processing

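In mock, 3 components passed 2-fold, higher in *wlim2a-1*, with *HAI2* compared only through *wlim2a-1* mock. The count was 0 with a pseudocount of 5, an FPKM minimum of 5 or a 4-fold threshold. With flg22 in *wlim2a-1*, 1 was lower, against 3 with a pseudocount of 0.1, 6 when divided by *ACT2* and *UBQ10*, 6 at 1.5-fold, and 0 with a pseudocount of 5, a minimum of 5 or a 4-fold threshold. The change with flg22 was lower in *wlim2a-1* by at least 1 for 1 component, against 2 with a pseudocount of 0.1 or as the ratio, 3 at 1.5-fold, and 0 with the other 3 of these settings. After flg22, 1 component was higher in *wlim2a-1* with a pseudocount of 0.1, against 0. The other 74 recomputed counts were the same or within 1.5 times. *NCED3*, *HAI1* and *HAI2* kept the sign of their differences past 2-fold with both other pseudocounts, the 3 scalings and no FPKM minimum, and were not compared with a minimum of 5. Over all genes, flg22 in *wlim2a-1* gave 1068 higher and 822 lower genes, but 561 and 4156 as the ratio and 1256 and 565 with nuclear genes rescaled to a common sum. In WT the counts were 864 and 91, against 503 and 745 as the ratio. The difference of the flg22 changes gave 282 higher and 715 lower genes, against 390 and 456 when rescaled. Of the recomputed list medians, 52 moved by over 0.25 and 368 did not. No paired analysis was possible because the replicates were combined before deposition, and no replicate could be left out for the same reason.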
